A study of Homo sapiens with 16 samples.

Results

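SW480 colon cancer cells that had been transduced with estrogen receptor beta were set against SW480 cells transduced with an empty vector, as messenger RNA levels of all genes. The groups were taken from the labels: 2 libraries of SW480 cells marked as ERB-transduced and not carrying the empty vector (ERB I and ERB II), against 2 libraries of SW480 cells marked as transduced with the empty vector and not with ERB (EV I and EV II). These are 4 of the 16 libraries of the series. Neither group received a treatment, and both grew in DMEM with fetal bovine serum. The remaining libraries hold untransduced parental SW480 and SW620 cells, SW620 cells with ERB or the empty vector, and ERB-transduced SW620 cells given DMSO or estradiol, with 2 libraries in each group. The vector, the promoter that drives the receptor, the receptor isoform, and whether a transduced population was a clone or a pool are not given in the sources used here. The labels do not say whether libraries I and II came from separate cultures, so p-values measure the spread between libraries, which may be technical.

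SW480 is an established line from a primary colon adenocarcinoma, and SW620 is a line from a lymph node metastasis of the same patient. Estrogen receptor beta, the product of ESR2, is a nuclear receptor that binds estrogens and acts on genes through estrogen response elements in DNA or through other transcription factors such as AP-1 and SP1. It is the main estrogen receptor of normal colon epithelium, its level is known to be lower in colon tumours, and it has been studied there as a brake on proliferation. No estrogen was added here beyond what serum and medium contain.

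The 2 SW480 ERB libraries held 14104263 and 15407963 counts and the 2 SW480 EV libraries held 13621574 and 15354043. Library pairs differed beyond counting noise in all 8 groups of the series, least in SW620 with ERB and most in SW480 EV. The chi-square per degree of freedom between the 2 libraries was 57.2 for SW480 ERB and 231 for SW480 EV, against 6.54 for SW620 with ERB. Across genes the SD of the log2 difference between the 2 libraries was 0.893 in SW480 ERB and 1.54 in SW480 EV, the widest of the 8 groups. Mitochondrially encoded genes took 5.79 and 4.88% of the counts in the ERB libraries and 5.87 and 8.78% in EV I and EV II. EV II therefore stood apart in its mitochondrial share. In another measure ERB I lay nearer to it: the 10 genes with the most counts took 8.68% in ERB I and 10.6% in EV II. They took 6.81% in ERB II and 6.80% in EV I.

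ESR2 (ENSG00000140009) marked the transduced libraries. It had 142 and 185 reads in ERB I and ERB II, against 2 and 4 reads in EV I and EV II, which per library total equals 10.1 and 12.01 CPM (the count scaled to a common library size) in ERB and 0.147 and 0.260 in EV. The groups did not overlap, and the labels on the receptor hold. The ratio of ERB to EV was 55.6, with an exact 95% counting interval of 25.3 to 152.6, and the log2 fold change was 5.73 (SE 0.49, adjusted p = 0.000495, edgeR quasi-likelihood test). Parental SW480 had 2 reads in each library, so the EV libraries stood at the level of untransduced cells. In SW620 the receptor had 162 and 187 reads with ERB and 1 read in each EV library, a ratio of 175.8 (48.3 to 1457). ESR1, the gene of estrogen receptor alpha, had 0 reads in all 16 libraries, where 3 reads equal 0.158 to 0.235 CPM of a library. Counting intervals and floors cover counting error only.

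The line label was checked on genes that set parental SW480 apart from parental SW620, and the SW480 EV libraries went against it. There were 300 genes at 5 CPM or more in both parental SW480 libraries and at least 8-fold higher there than in both parental SW620 libraries. Their median level was 17.1 and 21.0% of the parental SW480 level in ERB I and ERB II, against 2.20 and 2.096% in EV I and EV II. In parental SW620 the median was 1.54 and 1.72%, so the EV libraries lay beside SW620 and the ERB libraries lay between the parental lines. More than 50% of the parental level was reached by 53 and 22 of the 300 genes in ERB I and ERB II, and by 0 and 5 in EV I and EV II. In mixed populations, fewer cells of a type and less RNA per cell cannot be told apart.

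The reverse set, 35 genes at least 8-fold higher in parental SW620 than in parental SW480, was present in both groups. Their median was 54.4 and 48.3% of the parental SW620 level in ERB I and ERB II, 28.8 and 66.2% in EV I and EV II, and 4.58 and 5.59% in parental SW480. VIL1, which encodes villin of the intestinal brush border, had 655 and 565 CPM in ERB, 610 and 652 CPM in EV, and 110 and 98.8 CPM in parental SW480 (here and below, CPM scaled with TMM factors unless stated). HNF4A, a transcription factor of gut epithelium, had 197 and 190 CPM in ERB, 198 and 248 CPM in EV, and 27.7 and 30.6 CPM in parental SW480. Parental SW620 had 481 and 583 CPM of VIL1 and 122 and 139 CPM of HNF4A, so both transduced groups lay on the side of SW620 in these genes, and neither passed the test between ERB and EV. The comparison below is that of the libraries as labelled. The receptor and the level of SW480 line genes differ between them together, and their parts in a difference cannot be told apart.

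**Figure D1:**
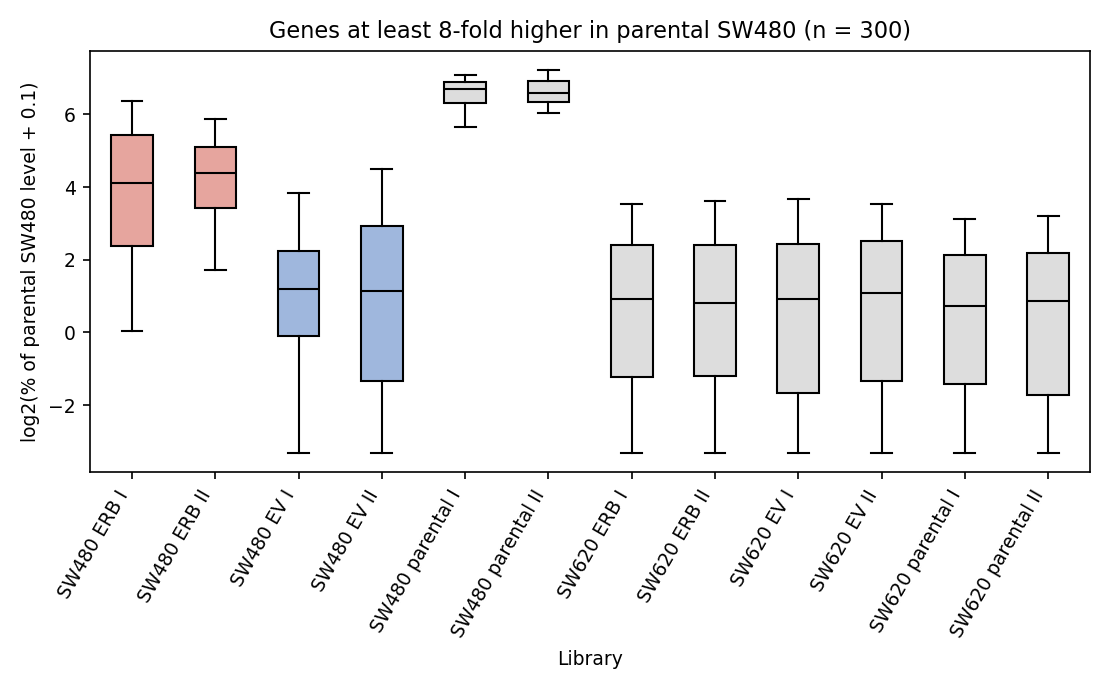
The 300 genes that were at least 8-fold higher in parental SW480 than in parental SW620, as the percentage of their mean parental SW480 level, on a log2 axis, in 12 libraries without added treatment (box, quartiles with the median; whiskers, the 5th and 95th percentiles). The medians of the SW480 ERB libraries, 17.1 and 21.0%, lie above those of the SW480 EV libraries, 2.20 and 2.096%, which lie at the level of the SW620 libraries.

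Of 17464 genes tested, 192 were called (adjusted p under 0.05), 1.1% of all tested, and all 192 rose with ERB. No gene was called lower (0%), where the smallest adjusted p was 0.071. At an unadjusted p under 0.05 there were 1098 higher and 590 lower genes, and DESeq2 called 343 higher and 53 lower. Both ERB libraries lay above both EV libraries in 2429 genes (13.9%) and below both in 1550 genes (8.88%), so that the groups did not overlap in 3979 genes (22.8%). The called genes rose by a median of 3.65 on the log2 scale, between 1.21 and 10.3, and the median over all genes tested was −0.07. With offsets for GC content and transcript length the split was 397 higher and 180 lower genes.

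The calls rested on all groups of the series sharing 1 estimate of the spread. The SD of the log2 difference between libraries was 0.893, 1.54 and 1.02 in SW480 ERB, EV and parental cells. In the SW620 groups it was 0.385 to 0.737. Whether the shared estimate holds for SW480 was not tested. No gene was called when edgeR was fitted to the 4 SW480 ERB and EV libraries alone, with 313 higher and 61 lower genes at an unadjusted p under 0.05. The count was also 0 in the 6 SW480 libraries (565 higher and 77 lower unadjusted) and in the 8 ERB and EV libraries of both lines (636 and 442). Without EV II, 867 of 18282 genes were called (4.74%), of which 799 rose (4.37%) and 68 fell (0.372%), and 180 of the 192 genes were among them. Without ERB I, ERB II and EV I the counts were 89, 91 and 281.

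**Figure D2:**
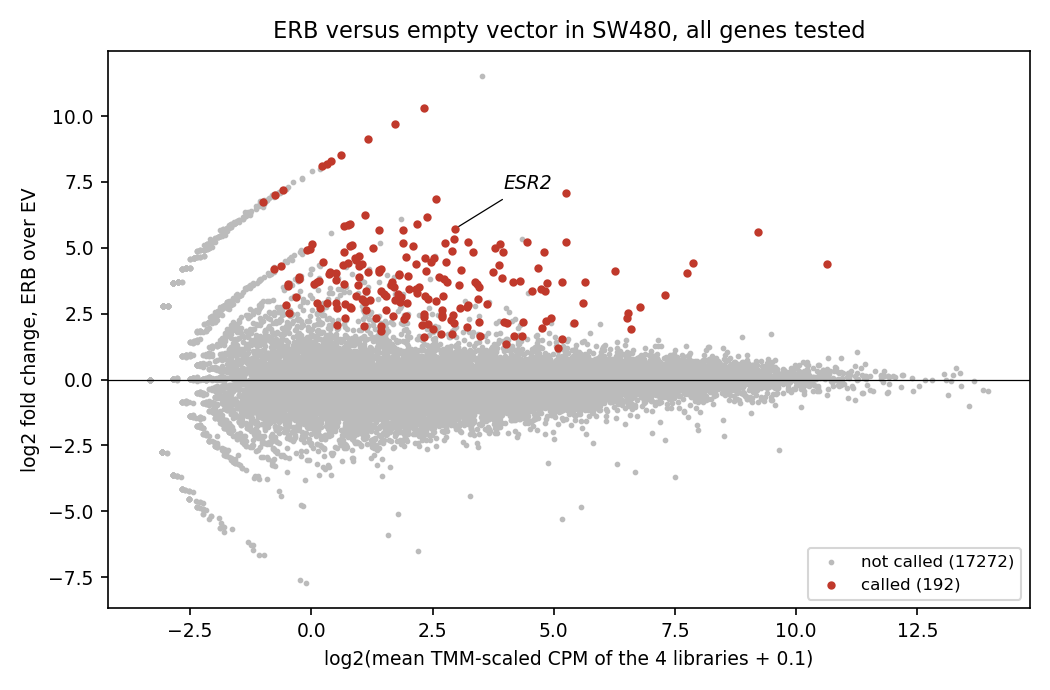
Log2 fold change of ERB over EV in SW480 against mean level (log2 of TMM-scaled CPM + 0.1) for 17464 genes, with the 192 called genes in red and ESR2 marked. The called genes all lie above 0; the fitted fold changes of genes with 0 reads in one group, the outer curved rows at low levels, depend on the prior count.

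The SW480 line genes made up most of the called set. Besides those marked as such below, they include CHST2, KCNN4, VSTM1, ADAMTS8, GNG11, TGM2, KRT5, CCDC3 and TRIP6. CST1, CST2, CDKN1A, ITGA3, KRT74, MYEOV, SLC2A3, MT1F and CD74 belong to them too. Of the 300 genes, 120 were called higher (40% of them), which is 62.5% of the 192 called genes, against 1.1% of all genes tested. Their median log2 fold change was 2.96 (2.81 with genes without EV reads at their bound). Of the 300, 290 had a positive value, beside 8022 of all 17464 genes. In 257 both ERB libraries lay above both EV libraries, beside 13.9% of all genes. In SW620 the same 300 genes had a median log2 difference of 0.00 between ERB and EV. Their median level there was 1.80 and 1.65% of parental SW480 with ERB and 1.81 and 2.02% with EV. At such low levels a difference near 0 says little. Of the 35 SW620-typical genes 0 were called by edgeR, DESeq2 or limma-voom, 19 had a positive value, and the median was 0.01. Without EV II, 153 of the 300 and 6 of the 35 were called. Without ERB I and ERB II, 63 and 66 of the 300 were.

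Set against the parental cells, the called genes were below the parental SW480 level in both groups. In 185 of the 192, both parental SW480 libraries lay above both parental SW620 libraries. In ERB the called genes stood at a median of 37.1% of the parental SW480 mean (quartiles 24.3 and 52.5%), and in EV at 2.69% (quartiles 0.989 and 6.26%). Both ERB libraries lay below both parental SW480 libraries in 160 genes and above both in 7, and both EV libraries lay below them in 189. With parental SW480 in place of EV, 7756 genes were called, 3400 higher and 4356 lower with ERB, and 3 of the 192 were called higher.

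The largest differences were in genes with few or no reads in EV. CHST2, a sulfotransferase that modifies sugar chains of cell surface proteins, had 11.4 and 8.10 CPM in ERB and 0 reads in both EV libraries. It was at least 70.0-fold higher against a floor of 3 reads over the EV group (adjusted p = 0.0125). CD70, a membrane ligand of the tumour necrosis factor family, had 13.2 and 10.1 CPM in ERB, against 0 and 0.223 CPM in EV, a ratio of 126.5 with a counting interval of 34.7 to 1050. DPYSL5, a collapsin response mediator protein of growing neurites, had 11.97 and 8.17 CPM in ERB, against 0.150 and 0.111 CPM in EV, a ratio of 72.1 (24.3 to 352.3). These genes were near silent in EV. That both ERB libraries lay above both EV libraries in each follows from the rule that chose them.

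KCNN4, a calcium-activated potassium channel, had 8.78 and 5.42 CPM in ERB, against 0.225 and 0 CPM in EV, a ratio of 50.3 (16.9 to 246.8). VSTM1, a membrane receptor of the immunoglobulin family, had 10.6 and 6.87 CPM in ERB, against 0.0751 and 0.223 CPM in EV, a ratio of 62.2 (21.0 to 304.5). ADAMTS8, a secreted metalloprotease, had 17.4 and 12.2 CPM in ERB, against 0.300 and 0.445 CPM in EV (log2 fold change 5.32, adjusted p = 0.0048). GNG11, a G protein gamma subunit, had 39.9 and 45.2 CPM in ERB I and ERB II, against 1.73 and 0.445 CPM in EV (log2 fold change 5.22, adjusted p = 0.0145). Leaving out ERB I ended the calls of CHST2 (adjusted p = 0.0599), VSTM1 (0.159) and GNG11 (0.0619), and leaving out ERB II ended those of VSTM1 (0.0968) and GNG11 (0.0647). VSTM1 was also lost without EV I (0.13) and without EV II (0.0501).

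**Figure D3:**
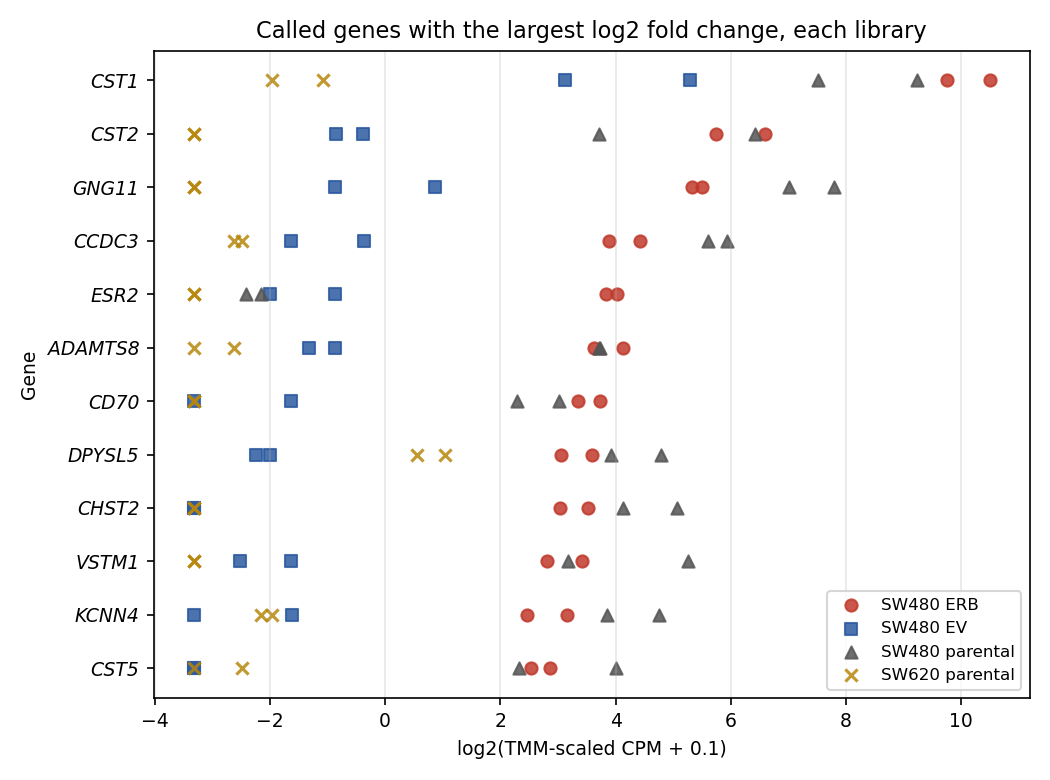
TMM-scaled CPM + 0.1, on a log2 axis, of the 12 called genes with the largest log2 fold change and a mean of 5 CPM or more in ERB, in each library of SW480 ERB, SW480 EV and both parental lines. The rule that chose these genes required the ERB libraries to lie to the right of both EV libraries. In most genes the parental SW480 libraries lie near or above ERB, while ESR2 is low in them.

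Called genes at high levels included several that parental SW480 expresses strongly. TGM2, the tissue transglutaminase that cross-links proteins, had 3813 and 2247 CPM in ERB, against 79.8 and 209 CPM in EV and 9239 and 3974 CPM in parental SW480 (log2 fold change 4.39, SE 0.54, adjusted p = 0.0020). KRT5, a keratin of basal epithelia, had 492 and 322 CPM in ERB, against 13.3 and 36.1 CPM in EV (4.05, adjusted p = 0.0017). NGFR, the low-affinity nerve growth factor receptor, had 561 and 336 CPM in ERB, against 13.3 and 28.6 CPM in EV (4.42, adjusted p = 0.00059). In these 3 genes ERB and EV did not overlap, ERB I exceeded ERB II and EV II exceeded EV I. Over the called set, ERB I was above ERB II in 123 of the 192 genes, and EV II above EV I in 106. TGM2 and KRT5 fall outside the rule for naming genes and were chosen after their values were seen.

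Promoters were read for the called genes, all of which were called in the same direction. RefSeq windows of 250 bases before to 50 after the start of a gene (GRCh38.p14) were matched by Ensembl identifier, or else by symbol. A window was found for 130 of the 192 called and 10108 of the 17464 tested genes. The windows below show 3 called genes, 2 with an NF-kB motif (GGGA, any 2 bases, then TTCC) and 1 with an AP-1 motif (TGANTCA), each searched on both strands; they were chosen after the matches were seen, and capitals mark the match.
CCDC3 promoter, chr10:13099940-13100239, minus strand: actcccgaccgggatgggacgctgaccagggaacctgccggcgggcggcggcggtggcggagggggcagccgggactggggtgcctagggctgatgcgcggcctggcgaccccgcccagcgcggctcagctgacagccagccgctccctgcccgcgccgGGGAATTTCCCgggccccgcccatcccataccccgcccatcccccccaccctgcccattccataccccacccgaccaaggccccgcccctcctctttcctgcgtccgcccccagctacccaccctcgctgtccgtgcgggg
LTB promoter, chr6:31582376-31582675, minus strand: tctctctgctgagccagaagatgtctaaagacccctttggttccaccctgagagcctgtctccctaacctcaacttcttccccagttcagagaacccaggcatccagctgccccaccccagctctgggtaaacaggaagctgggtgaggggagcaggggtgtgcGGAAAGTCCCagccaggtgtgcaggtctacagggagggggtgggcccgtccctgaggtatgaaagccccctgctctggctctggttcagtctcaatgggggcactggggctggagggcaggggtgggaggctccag
TRIP6 promoter, chr7:100867137-100867436, plus strand: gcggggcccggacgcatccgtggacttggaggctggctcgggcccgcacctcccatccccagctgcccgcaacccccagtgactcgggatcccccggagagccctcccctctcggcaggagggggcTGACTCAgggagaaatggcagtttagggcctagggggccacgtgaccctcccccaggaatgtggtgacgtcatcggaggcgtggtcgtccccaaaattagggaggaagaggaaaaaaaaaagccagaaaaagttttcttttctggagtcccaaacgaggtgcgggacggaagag
In CCDC3, 2 matches that overlap on opposite strands begin 91 and 90 bases before the start. In LTB 1 match begins 86 bases before it, and in TRIP6 1 match begins 124 bases before it.

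CCDC3, a secreted coiled-coil protein of fat and endothelial cells, had 21.3 and 14.7 CPM in ERB, against 0.676 and 0.223 CPM in EV (log2 fold change 5.23, SE 0.49, adjusted p = 0.000495). LTB, the lymphotoxin beta subunit that signals to the NF-kB pathway, had 1.14 and 1.15 CPM in ERB, against 0.0751 and 0.111 CPM in EV, a ratio of 12.8 with an interval of 3.18 to 111.1 (adjusted p = 0.035). TRIP6, a LIM-domain adaptor of focal adhesions, had 89.0 and 58.8 CPM in ERB, against 0.977 and 3.12 CPM in EV (log2 fold change 5.21, SE 0.62, adjusted p = 0.0017). LTB was the lowest of the 3 and its call was lost without ERB I, ERB II or EV I (adjusted p = 0.132, 0.132 and 0.136).

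The NF-kB motif was in 5 of 130 called windows (3.85%) and in 158 of 10108 tested windows (1.56%), beside 1.63% of all 27305 promoters in the table. The AP-1 motif was in 10 called windows (7.69%) and in 4.56% of tested windows, beside 7.76% of all. The estrogen response element (GGTCA and TGACC with any 3 bases between) was in 0 of the called windows, 1 of the tested windows and 0.0659% of all promoters. The SP1 motif GGGCGG was in 70.8% of called and 70.1% of tested windows, and the TEAD motif GGAATG in 10.8 and 11%. The TCF motif CTTTGAT was in 3.08 and 1.38% and the TATA box TATAAA in 9.23 and 5.6%. The counts behind the NF-kB, AP-1 and TCF shares of the called genes are 10 or fewer, and a match describes these letters in this window only.

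In 7 called genes both ERB libraries lay above both parental SW480 libraries. Besides ESR2 they were CST1, CD70, KRT13, CYB5R2, C20orf166-AS1 and OAS1. This sets 2 libraries against 2 and is not a test. In the test against parental SW480, 3 of the 192 called genes were called higher. CST1, which encodes cystatin SN, a secreted inhibitor of cysteine proteases, had 1447 and 867 CPM in ERB, 8.56 and 39.0 CPM in EV, and 598 and 183 CPM in parental SW480. KRT13, a keratin of stratified mucosa, had 11.9 and 7.10 CPM in ERB, 0.150 and 0.668 CPM in EV, and 5.56 and 2.62 CPM in parental SW480. OAS1, an interferon-induced synthetase that senses double-stranded RNA, had 25.5 and 20.2 CPM in ERB, 8.41 and 9.68 CPM in EV, and 9.57 and 8.73 CPM in parental SW480. CYB5R2, a cytochrome b5 reductase, had 9.58 and 7.26 CPM in ERB, 1.58 and 2.34 CPM in EV, and 6.61 and 5.11 CPM in parental SW480.

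OAS1 and C20orf166-AS1 also differed from most called genes in that parental SW480 was below parental SW620. OAS1 had 12.6 and 14.6 CPM in parental SW620, and it rose by 1.34 on the log2 scale (SE 0.28, adjusted p = 0.0471). C20orf166-AS1, an antisense RNA whose reads cannot be told from its partner's if counting ignored strand, had 1.37 and 1.15 CPM in ERB and 0.0751 and 0.223 CPM in EV, a ratio of 9.18 (2.83 to 47.3). The calls of KRT13, OAS1, CYB5R2 and C20orf166-AS1 were each lost without ERB I, ERB II or EV I, with adjusted p-values between 0.0568 and 0.354. CYB5R2 and C20orf166-AS1 were named after their values were seen.

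Of the 4 cystatin genes CST1, CST2, CST4 and CST5, which lie together on chromosome 20, 3 were called higher. CST1, CST2 and CST4 are near-identical copies, so how reads were divided among them is uncertain. CST2, cystatin SA, had 97.1 and 53.4 CPM in ERB, against 0.451 and 0.668 CPM in EV (log2 fold change 7.08, adjusted p = 0.0121), and CST1 had a log2 fold change of 5.61 (adjusted p = 0.0039). CST5, cystatin D, had 7.18 and 5.65 CPM in ERB and 0 reads in EV, at least 46.6-fold higher (adjusted p = 0.0147). CST4, cystatin S, had 46.0 and 32.9 CPM in ERB, against 0.0751 and 2.004 CPM in EV, and missed the threshold (5.34, adjusted p = 0.0505) but passed without EV II (8.83, adjusted p = 0.0139). CST3, the cystatin C gene of nearly all cells, had 738 and 410 CPM in ERB and 176 and 1015 CPM in EV, where the groups overlapped. CST3 and CST4 were named after their values were seen. Without ERB I, CST2 and CST5 missed the threshold (adjusted p = 0.0524 and 0.063), and so did CST5 without ERB II (0.0513) and CST2 without EV I (0.0585). Chromosome 20 had 15 of 447 tested genes called (3.36%), the highest share of any chromosome, and chromosome 13 had 1 of 314 (0.318%), the lowest.

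Of 26 tested classical estrogen response genes 2 were called higher, OLFM1 and KRT13, beside 1.1% of all genes tested. The list's median log2 fold change was 0.25, beside −0.07 for all genes. DESeq2 called 4 of the 26 higher, and without EV II the median was 0.60. Where calls without EV II are given for a list below, the share of all genes called in that fit was larger than 1.1%, as given above. OLFM1, the secreted neuronal glycoprotein olfactomedin 1, had 2.39 and 4.81 CPM in ERB, against 0.225 and 0.111 CPM in EV (4.30, adjusted p = 0.0039). PGR, which encodes the progesterone receptor and is a standard estrogen target in breast cells, had 0 reads in the 4 libraries. The most abundant members, SLC7A5, IGFBP4 and CTSD, were not called and had log2 fold changes of −0.58, 0.64 and 0.17. Of 26 nuclear receptor and coregulator genes ESR2 alone was called, and the median was −0.04, or 0.22 without EV II.

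Of 19 tested genes with a reported response to ERB in colon cancer cells, CDKN1A was called and the median was −0.35, or −0.78 without EV II. CDKN1A encodes p21, the inhibitor of cyclin-dependent kinases, and had 78.6 and 54.5 CPM in ERB, against 2.93 and 7.46 CPM in EV (log2 fold change 3.69, SE 0.48, adjusted p = 0.0031). Parental SW480 had 98.8 and 60.3 CPM of it and parental SW620 had 1.05 and 1.17 CPM. MYC had 256 and 294 CPM in ERB and 272 and 417 CPM in EV (−0.32, adjusted p = 0.68). CCND1, the cyclin D1 gene, had 198 and 299 CPM in ERB and 125 and 104 CPM in EV, where the groups did not overlap (1.12, adjusted p = 0.087). E2F1, which drives S phase genes, had 225 and 133 CPM in ERB and 67.1 and 159 CPM in EV (0.66, adjusted p = 0.63).

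NF-kB and inflammatory target genes had the most called members of any list in the edgeR fit of all 16 libraries. DESeq2 called 6 of them, 7 of the YAP and TAZ list and 9 of the ATF4 and CHOP list. Without EV II the medians of the NF-kB and interferon lists were 1.36 and 1.38. Of 31 tested NF-kB genes 6 were called higher (TNFAIP2, ICAM1, LTB, SAA1, SAA2 and C3), beside 1.1% of all genes tested. The median was 0.71, beside −0.07 for all genes. Of the 31, 25 had a positive value, beside 8022 of all 17464. All 6 called genes are SW480 line genes, which made up most of the called set. TNFAIP2, inducible by the cytokine TNF, had 61.1 and 46.6 CPM in ERB, against 2.93 and 5.57 CPM in EV (3.67, SE 0.40, adjusted p = 0.00088). SAA1, an acute phase protein, had 35.6 and 21.8 CPM in ERB, against 0.376 and 1.34 CPM in EV (5.13, adjusted p = 0.0125), and SAA2, its near-identical neighbour, had 0 reads in EV and was at least 20.1-fold higher. C3, the central complement component, had 9.92 and 6.34 CPM in ERB, against 0.0751 and 0.445 CPM in EV (5.07, adjusted p = 0.0045). ICAM1, an adhesion receptor for leukocytes, had 53.4 and 48.4 CPM in ERB, 6.23 and 14.2 CPM in EV, and 255 and 227 CPM in parental SW480 (2.32, adjusted p = 0.0136).

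The abundant NF-kB members TNIP1, IRF1 and SOD2 were not called, with log2 fold changes of 0.37, 0.06 and −0.19. IL1A, IL1B, IL6, CXCL10 and PTGS2 had 0 reads in the 4 libraries. Without EV II the median of the list was 1.36, beside −0.04 over all genes. ICAM1 was lost without ERB I or ERB II (adjusted p = 0.0788 and 0.0647), and SAA1 without ERB I (0.0615). SAA2 was lost without ERB I, ERB II or EV I (0.105, 0.0662 and 0.0583).

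Interferon-stimulated and MHC class I genes had 3 of 35 called (IFI27, IFITM1 and OAS1), beside 1.1% of all genes tested. Of the 35, 28 had a positive value, beside 8022 of all 17464 genes, and the median was 0.57. None of the 3 called genes is an SW480 line gene, but IFITM1 and IFI27 missed that set only through its floor of 5 CPM. IFITM1 had 4.32 and 4.23 CPM in parental SW480, against 0.0620 and 0.0779 CPM in parental SW620. IFI27 had 4.82 and 4.28 CPM, against 0.496 and 0.156 CPM. IFITM1, a membrane protein that blocks virus entry, had 2.74 and 1.83 CPM in ERB and 0 reads in EV, at least 16.3-fold higher (adjusted p = 0.0089). IFI27 had 3.54 and 2.14 CPM in ERB, against 0.225 and 0 CPM in EV, a ratio of 20.1 (6.54 to 100). The abundant members HLA-C and IFITM2 were not called, with 0.44 and −0.17. Without EV II the median was 1.38, beside −0.04 over all genes, and the call of IFI27 was lost without ERB I or ERB II.

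YAP and TAZ target genes, which respond to cell density and tension, had 3 of 29 called, beside 1.1% of all genes tested. Their median was 0.57, or 0.87 without EV II. Of the 29, 24 had a positive value, beside 8022 of all 17464 genes. All 3 called genes are SW480 line genes. CYR61, a matricellular protein and standard YAP target, had 49.8 and 52.7 CPM in ERB, against 5.48 and 4.56 CPM in EV (3.35, SE 0.33, adjusted p = 0.00059). IGFBP3, which binds insulin-like growth factors, had 27.6 and 38.6 CPM in ERB, against 3.005 and 2.004 CPM in EV (3.71, adjusted p = 0.00096). AMOTL1, an angiomotin that holds YAP at junctions, had 7.41 and 17.3 CPM in ERB, against 1.05 and 0.668 CPM in EV (3.81, adjusted p = 0.0220), and was lost without ERB II (0.102). In these 3 genes ERB II was above ERB I and EV I above EV II, the reverse of the order in TGM2, KRT5 and NGFR. BIRC5, MYOF and AJUBA, the abundant members, were not called (0.66, −0.53 and 0.06).

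Mesenchymal transition genes had 4 of 25 called, among them FN1, ACTA2 and LOXL2, beside 1.1% of all genes tested. The median was 0.68, or 1.47 without EV II. FN1, ACTA2 and LOXL2 are SW480 line genes. FN1, the fibronectin gene, had 63.8 and 109 CPM in ERB, against 13.6 and 9.46 CPM in EV (2.90, SE 0.32, adjusted p = 0.00088). ACTA2, smooth muscle actin, had 6.84 and 5.27 CPM in ERB, against 0.225 and 1.11 CPM in EV (3.26, adjusted p = 0.0167). LOXL2, a collagen cross-linking oxidase, had 11.5 and 9.93 CPM in ERB, against 1.502 and 2.67 CPM in EV (2.37, adjusted p = 0.0222). ACTA2 and LOXL2 were lost without ERB I (adjusted p = 0.0967 and 0.127) and without ERB II (0.0568 and 0.0821), and LOXL2 also without EV I (0.0786). VIM, which encodes vimentin, had 829 and 835 CPM in ERB and 690 and 829 CPM in EV and was not called (0.13), nor were S100A4 (0.51) and TNC (0.60).

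The epithelial junction and polarity genes, the counterpart of that list, had 0 of 35 called by edgeR, with 1 higher and 4 lower at an unadjusted p under 0.05, and a median of −0.49. DESeq2 called 1 of them lower, limma-voom 0, and edgeR with GC and length offsets 4 lower, while edgeR without EV II called 1 higher, with a median of −0.55. SPINT2, a protease inhibitor, JUP, plakoglobin, and LLGL2, a polarity protein, had log2 fold changes of 0.40, −0.11 and 0.24. Among 24 tested genes of an S100 and keratin list KRT13 was called higher, and the median was 0.19. Without EV II, 5 were called and the median was 1.21. The called keratins KRT5, described above, and KRT74 are not on that list. KRT74 had 1.82 and 2.75 CPM in ERB, against 0.225 and 0 CPM in EV, a ratio of 17.7 (5.72 to 88.5), and was named after its values were seen. KRT74 (adjusted p = 0.0464) was lost without ERB I or ERB II (0.113 and 0.204). KRT8, KRT18 and KRT19, the keratins of simple epithelia, were the most abundant members: KRT8 had 15039 and 8128 CPM in ERB and 3638 and 13641 CPM in EV, so that the groups overlapped (0.42, adjusted p = 0.80). KRT18 and KRT19 had −0.01 and 0.33.

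WNT feedback and stem cell genes had 3 of 33 called, beside 1.1% of all genes tested, and a median of 0.13, or 0.16 without EV II. Of the 3, DKK3 is an SW480 line gene. APCDD1 and CD44 are not, though both were higher in parental SW480 than in parental SW620. APCDD1 had 726 and 918 CPM against 92.9 and 104 CPM, and CD44 had 105 and 67.7 CPM against 18.2 and 19.5 CPM. APCDD1, a membrane-bound WNT inhibitor, had 137 and 177 CPM in ERB, against 29.7 and 25.2 CPM in EV (2.51, SE 0.27, adjusted p = 0.00088). DKK3, a secreted member of the dickkopf family, had 19.6 and 20.2 CPM in ERB, against 1.73 and 1.78 CPM in EV (3.50, SE 0.39, adjusted p = 0.00098). CD44, the hyaluronan receptor, had 16.3 and 19.2 CPM in ERB, against 4.73 and 3.12 CPM in EV (2.17, adjusted p = 0.0071), and missed the threshold without ERB II (0.0534). The feedback genes NKD1, NOTUM and EPHB2 were far more abundant and were not called, with −0.16, 0.32 and 0.18. NKD1, for example, had 1885 and 1954 CPM in ERB and 1772 and 2514 CPM in EV.

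TGF-beta and BMP genes had 2 of 30 called, the SW480 line gene LTBP2 among them, beside 1.1% of all genes tested. The median was 0.05, or 0.20 without EV II. LTBP2, a latent TGF-beta binding protein of microfibrils, had 8.21 and 6.26 CPM in ERB, against 0.376 and 1.002 CPM in EV (3.44, adjusted p = 0.0136), and was lost without ERB I (0.0745). Of 22 collagen, laminin and matrix genes FN1 was called and the median was 0.56, which without EV II became 1.48. Of 31 integrin and focal adhesion genes ITGA3, the integrin alpha-3 subunit, was called, with 233 and 152 CPM in ERB and 10.3 and 46.9 CPM in EV (2.75, adjusted p = 0.0495). The list's median was 0.07, and without EV II 5 of the 31 were called, with a median of 0.68. ITGA3 was lost without ERB I (0.278), ERB II (0.102) or EV I (0.0637). FLNA and ACTN4, actin cross-linkers that anchor adhesions, were not called (0.61 and 0.42).

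**Figure D4:**
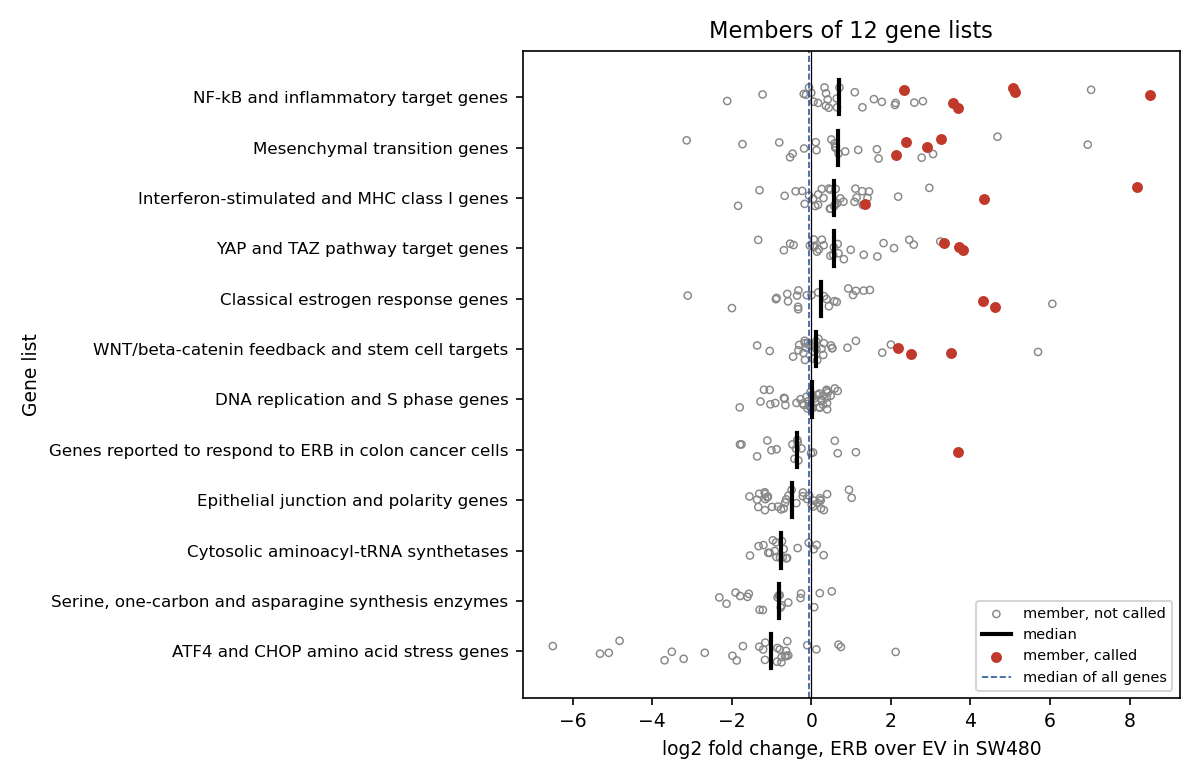
Log2 fold change of ERB over EV in SW480 for the tested members of 12 gene lists; filled red points are called members, open points are members not called, bars are list medians and the dashed line is the median of all genes, −0.07. Called members lie to the right in 7 lists, up to 6 of 31 in the NF-kB list, and the amino acid lists at the bottom have medians between −1.01 and −0.76.

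Single members of other lists were also called, beside 1.1% of all genes tested. MYEOV, an oncogene found in myeloma, was the called member of 27 MAPK feedback genes, with 184 and 105 CPM in ERB and 5.18 and 11.4 CPM in EV (4.14, adjusted p = 0.0021). The median of that list was 0.10, and without EV II 4 were called, with a median of 0.45. SLC2A3, the glucose transporter GLUT3, was the called member of 32 hypoxia and glycolysis genes, with 105 and 200 CPM in ERB and 46.2 and 35.0 CPM in EV (1.91, adjusted p = 0.0089), and was lost without ERB II (0.0825). The median of that list was −0.04, and without EV II 3 genes were called higher and 1 lower, with a median of 0.54. GAPDH, PKM and ENO1, glycolytic enzymes, had −0.04, 0.25 and −0.07. The metallothioneins MT1E and MT1F, small metal-binding proteins, were called out of 11 (2.75 and 2.65), while MT2A, the most abundant, had 307 and 165 CPM in ERB and 34.4 and 332 CPM in EV. The median of the 11 was 0.16, and without EV II 6 were called, with a median of 2.35. MT1E and MT1F were lost without ERB I (adjusted p = 0.128 and 0.244), MT1F also without EV I (0.112), and these genes are near-identical copies.

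The remaining lists had few called members in the fit of all libraries. Of 28 AP-1 and EGR immediate early genes edgeR called 0, with 1 higher and 1 lower at an unadjusted p under 0.05, DESeq2 called 1 higher and limma-voom 0, and the median was 0.24. Without EV II edgeR called 6 of the 28 higher, with a median of 0.67. Of 30 p53 targets and CDK inhibitors CDKN1A was called and the median was −0.04, and of 27 actin-binding genes ACTA2 was called and the median was 0.23. Without EV II, 3 and 4 genes of these lists were called, with medians of 0.19 and 0.50. The 26 cholesterol synthesis genes had a median of 0.33, the 26 ER chaperone genes −0.32, the 22 NRF2 antioxidant genes −0.15, the 20 clock genes −0.18 and the 18 enterocyte genes −0.02. The 48 ribosomal protein genes had −0.03 and the 13 mitochondrially encoded mRNAs −0.42. In these 7 lists edgeR called 0, with 3 higher and 5 lower together at an unadjusted p under 0.05, while DESeq2 called 2 higher and 1 lower and limma-voom 2 higher. Without EV II edgeR called 3 higher in them, and the medians were 0.46, −0.49, −0.17, −0.01, 0.52, 0.45 and 0.37 in the same order. Of 13 tested goblet and secretory genes DEFA5, a defensin of Paneth cells with 22 reads in ERB and 0 in EV, was called at least 7.48-fold higher, and the median was 0.70, or 0.27 with genes without EV reads at their bound. Without EV II, 2 were called and the median was 1.17.

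S phase and mitosis genes did not pass the test in either direction. Of 42 DNA replication and S phase genes edgeR, DESeq2 and limma-voom each called 0, with 0 at an unadjusted p under 0.05, and the median was 0.02, or −0.23 without EV II. MCM7 and MCM2, subunits of the replicative helicase, and TK1, thymidine kinase, had log2 fold changes of 0.29, 0.42 and 0.49. Of 37 G2 and mitosis genes these tools also called 0, with 0 higher and 3 lower at an unadjusted p under 0.05, and the median was −0.39, or −1.24 without EV II. CDC20, an activator of the anaphase-promoting complex, had 979 and 537 CPM in ERB and 370 and 681 CPM in EV (0.53, adjusted p = 0.69). Replication-dependent histone genes, whose RNA is mostly not polyadenylated, had a median of 0.99 over 16 tested, with 0 called by edgeR and 4 higher at an unadjusted p under 0.05. DESeq2 called 2 of them and limma-voom 0, and edgeR called 5 without EV II, with a median of 1.51. HIST1H2BJ, a histone H2B gene that is not on that list and was named after its values were seen, had 18.9 and 14.5 CPM in ERB, against 4.28 and 6.46 CPM in EV, and was called (1.64, adjusted p = 0.0413). HIST1H2BJ was lost without ERB I, ERB II or EV I (0.281, 0.0972 and 0.103). HIST1H2BK had 52.0 and 41.7 CPM in ERB and 16.7 and 22.4 CPM in EV (1.26, adjusted p = 0.065), HIST1H2AC had 1.13 and HIST1H1C 0.66.

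The amino acid stress genes stood apart in EV II. Of 30 ATF4 and CHOP target genes, which cells switch on when amino acids run short or the endoplasmic reticulum is stressed, edgeR called 0 with 1 higher and 14 lower at an unadjusted p under 0.05, and the median was −1.01. DESeq2 and edgeR with GC and length offsets each called 9 lower, and limma-voom called 1 higher. Relative to untreated SW620 libraries the list's median on the log2 scale was 0.43 and 0.54 in ERB I and ERB II and 0.00 and 2.15 in EV I and EV II. TRIB3, a pseudokinase induced by ATF4 and CHOP, had 282 and 151 CPM in ERB and 118 and 2653 CPM in EV, and ATF4 itself had 492 and 432 CPM in ERB and 458 and 1094 CPM in EV. For the list as for TRIB3, both ERB libraries lay between the EV libraries. Without EV II the median was 0.18, with 4 genes called higher. With EV I left out instead, TRIB3 (−3.60, adjusted p = 0.0022) and AARS, the alanyl-tRNA synthetase (−1.62, 0.0224), were called lower.

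Lists of amino acid supply were likewise highest in EV II. The 19 serine, one-carbon and asparagine enzymes had a median of −0.82, or 0.08 without EV II, and the 19 amino acid transporters −0.44, or 0.78 without EV II. The 20 cytosolic aminoacyl-tRNA synthetases had −0.76, or −0.36 without EV II. None of these lists had a gene called by edgeR, with 0, 1 and 0 higher and 8, 3 and 5 lower at an unadjusted p under 0.05. DESeq2 called 3, 0 and 1 of them lower, and edgeR with GC and length offsets 2, 2 and 4 lower and 1 transporter higher. Without EV II edgeR called 1, 1 and 0 higher and 0, 0 and 1 lower. SHMT2, a mitochondrial enzyme of one-carbon metabolism, had 2328 and 1207 CPM in ERB and 894 and 5124 CPM in EV. PYCR1, a proline synthesis enzyme, and the transporters SLC1A5 and SLC3A2 had log2 fold changes of −0.26, −0.10 and −0.44. Among the synthetases AARS, YARS and KARS had −1.05, −0.97 and −0.34. SQSTM1, an autophagy adaptor, had 766 and 512 CPM in ERB and 232 and 531 CPM in EV.

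**Figure D5:**
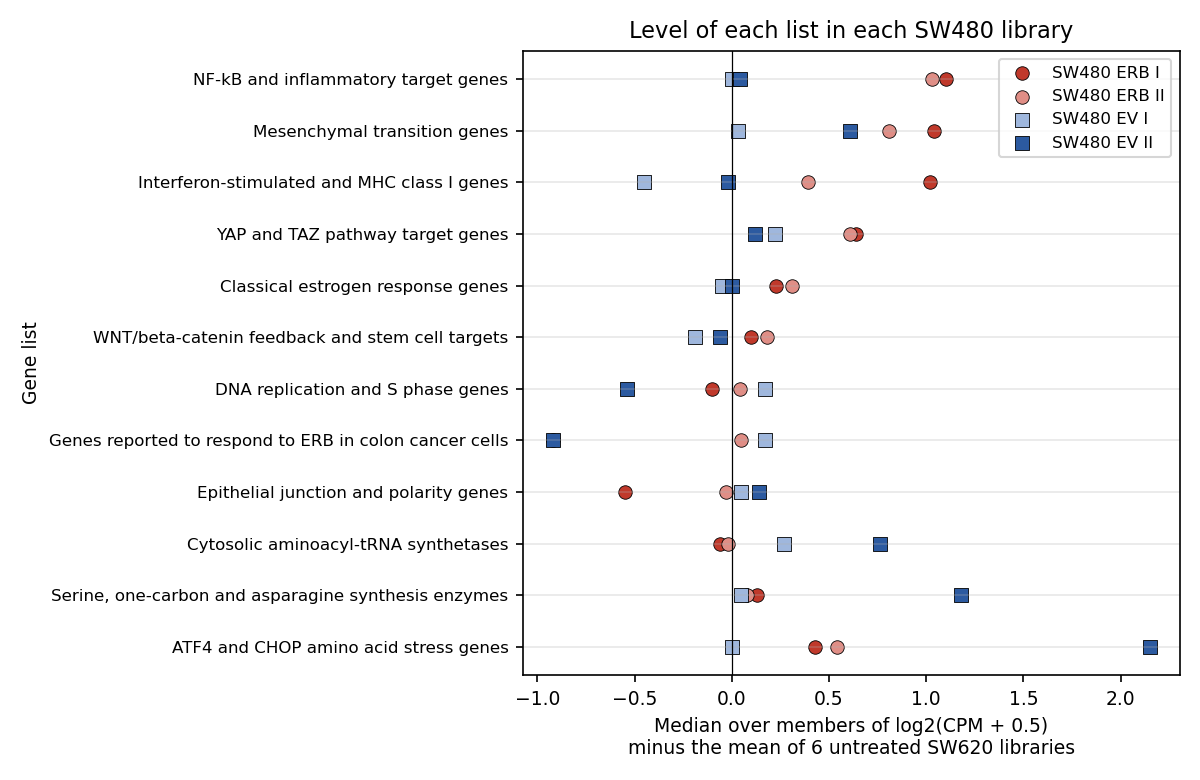
Median over list members of log2(CPM + 0.5) minus the mean of 6 untreated SW620 libraries, for ERB I and II (red circles) and EV I and II (blue squares) of SW480; the ERB I and EV II symbols coincide at −0.92 for the genes reported to respond to ERB. Both ERB libraries lie above both EV libraries for the NF-kB, mesenchymal, interferon, YAP, classical estrogen response and WNT lists. EV II lies alone at the right, at 2.15, for the ATF4 and CHOP list.

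Markers of other cell types were at low summed levels, with some members expressed and others at 0 reads. FBLN1, a fibroblast marker, had 152 and 88.8 CPM in ERB and 38.7 and 184 CPM in EV, most of that list's sum. LAPTM5, a leukocyte marker, had 17.1 and 15.0 CPM in ERB and 14.5 and 18.8 CPM in EV. Neither was called. The summed level of 13 fibroblast markers was 173.5 and 107.2 CPM in ERB and 49.2 and 207.5 CPM in EV, with COL3A1, DCN, PDGFRA, FAP and POSTN at 0 reads, and ACTA2 was the called member. The 14 leukocyte markers summed to 32.1 and 22.1 CPM in ERB and 15.9 and 20.8 CPM in EV, with CD3E, CD2, MS4A1, CD68, ITGAM and TYROBP among those at 0 reads, and CD74, the MHC class II invariant chain, was the called member (4.40, adjusted p = 0.0205, lost without ERB I at 0.12). The 9 endothelial markers summed to 5.93 and 2.75 CPM in ERB and 0.751 and 2.89 CPM in EV, with PECAM1, KDR, TEK and CLDN5 at 0 reads. The 16 neuronal and neuroendocrine markers summed to 182 and 147 CPM in ERB and 120 and 182 CPM in EV, with 6 at 0 reads, and CRMP1, a relative of DPYSL5, was the called member (2.17, adjusted p = 0.0085, lost without ERB I at 0.0663). The 12 colon epithelial cancer cell markers summed to 29800 and 16140 CPM in ERB and 8563 and 30410 CPM in EV.

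The difference between ERB and EV moved with GC content, and so did the differences within each group. With the genes in 5 equal classes of transcript GC content, lowest first, the median log2 fold change was −0.84, −0.38, −0.05, 0.16 and 0.32. The share called was 0.0292, 0.496, 1.49, 1.93 and 1.66%. Over the same classes the median of ERB I minus ERB II was −0.69 in the lowest and 0.60 in the highest, and that of EV I minus EV II was 1.35 and −1.50. Called genes had a median GC content of 54.5%, against 48.7% of all tested. The part of GC content in the calls was not tested beyond the fit with GC and length offsets, in which 189 of the 192 were still called.

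The same receptor in SW620 gave a different picture, although SW620 shares no library with the comparison above. There 1 gene of 17464 was called (0.00573%), ESR2. The 192 genes called in SW480 had a median log2 difference of 0.01 in SW620, and 98 were positive. Many of them had few or no reads there. CHST2 and CD70, for example, had 0 CPM in both ERB and both EV libraries of SW620. A value near 0 in such genes says little about an effect of the receptor in SW620. The test of the difference itself, the ERB effect in SW480 minus that in SW620, called 33 genes (0.189%), all with the larger rise in SW480, by 2.38 to 7.95 on the log2 scale. At an unadjusted p under 0.05 there were 611 higher and 171 lower. This test uses the same SW480 libraries, so it is not a second measurement of the SW480 effect.

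NGFR, FN1, DKK3 and KCNJ5 were among the genes with the smallest p in that test. NGFR had 561 and 336 CPM in ERB and 13.3 and 28.6 CPM in EV in SW480, and 21.6 and 21.3 CPM in ERB and 30.9 and 26.1 CPM in EV in SW620, a difference of 4.83 (SE 0.56). KCNJ5, an inward-rectifier potassium channel, had 29.3 and 23.8 CPM in ERB and 0.676 and 1.002 CPM in EV in SW480, and under 0.5 CPM in all 4 SW620 libraries, a difference of 5.06 (SE 0.63). FN1 and DKK3 differed by 3.64 (SE 0.43) and 4.71 (SE 0.57). The adjusted p of NGFR, KCNJ5, FN1 and DKK3 was 0.0104 each. In these 4 genes, the SW620 libraries with and without ERB lay below both SW480 ERB libraries, and both parental SW480 libraries lay above them.

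MAPT, the tau gene, passed this test without being called in SW480 and was named after its values were seen. It had 3.19 and 3.59 CPM in ERB and 1.35 and 0.890 CPM in EV in SW480 (1.57, adjusted p = 0.0787), and 0.361 and 0.559 CPM in ERB and 1.68 and 1.294 CPM in EV in SW620 (−1.66). The 33 calls of the difference became 0 without either SW620 ERB library, 7 and 1 without SW620 EV I and EV II, and 12, 17, 83 and 91 without SW480 ERB I, ERB II, EV I and EV II. With the 8 libraries of these 4 groups fitted alone edgeR called 0, with 373 higher and 155 lower at an unadjusted p under 0.05.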

How the data were processed

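Poly(A) RNA was extracted with a Qiagen kit and an added DNase step and made into stranded libraries, per the labels' protocols. The submitters' processing notes name the build GRCh37 and the tools Cufflinks 2.1.1, HTSeq 0.6.1, Picard 1.29, SAMtools and TopHat2 2.0.4. The tool behind each table, and whether counting heeded strand, are not given in the sources used here. For 63677 gene identifiers the authors deposited read counts, and for 63655 of them also FPKM (reads per transcript length and library size). The counts were whole numbers with unequal totals between libraries and were used as raw counts. FPKM entered as an alternative, in limma-trend on log2(FPKM + 1) or log2(FPKM + 0.1). Gene symbols came from the FPKM table, with 31 date-like symbols replaced from the RefSeq table. No coordinates of the files' build are given, and promoter sequences are RefSeq's (GRCh38.p14). Near-identical gene copies are uncertain.

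Genes were filtered with edgeR's filterByExpr and scaled with TMM. They were fitted with 1 quasi-likelihood model over 16 libraries in 8 groups of 2, with no covariate (edgeR 4.0.16, R 4.3.3), tested two-sided with the Benjamini-Hochberg adjustment over all genes tested and a threshold of 0.05. The TMM factors were 0.622 and 0.850 in SW480 ERB I and II and 0.978 and 0.585 in EV I and II. SEs were derived from the F statistic. Folds against 0 reads are bounds at 3 reads over both EV libraries (0.134 CPM), and with 1 to 3 reads the ratio has an exact 95% counting interval. The edgeR step was run on simulated counts in which all groups had the same spread. Such counts cannot show how the calls hold where groups differ in spread, as they do here.

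The named genes follow a rule. ESR2 came first, then the 12 largest called log2 fold changes per direction among genes whose higher group averaged at least 5 CPM and whose groups did not overlap. Then came up to 4 called members and the 3 most abundant members of each of 39 lists (997 genes, 72 on several lists), and the 5 smallest p per direction of the test between lines. Some items that this rule names are not reported here. The members and lists were chosen with earlier results of these data known. Replicate numbers did not pair the libraries: the deviations of ERB I and EV I from their group means correlated at −0.691, so the block is given among the alternatives only. The alternatives were RLE size factors, other filters, DESeq2 1.42.0, limma 3.58.1 (voom and FPKM), the block, GC and length offsets (splines with 5 degrees of freedom, values for 98% of genes), fewer libraries, parental controls and each library left out. Where a group was left with a lone library, that library was taken to vary as the remaining groups do.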

Additional observations from a re-analysis of the deposited data

Results flagged for a closer look

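The ERB effect differed between SW480 and SW620 in 33 genes by edgeR's test of the difference (adjusted p under 0.05, Benjamini-Hochberg), all with the larger rise in SW480. NGFR, FN1, DKK3 and KCNJ5 were among the genes with the smallest p. The log2 difference of the ERB effect was 4.83 for NGFR, 3.64 for FN1, 4.71 for DKK3 and 5.06 for KCNJ5. In each of these, both SW480 ERB libraries lay above both SW480 EV libraries. The SW480 log2 fold changes were 4.42, 2.90, 3.50 and 4.99, and those in SW620 were −0.41, −0.74, −1.22 and −0.07. All 4 belong to the 300 genes that are at least 8-fold higher in parental SW480 than in parental SW620, whose median level was 17.1 and 21.0% of parental SW480 in the SW480 ERB libraries and 2.20 and 2.096% in the SW480 EV libraries. The part of that difference in the result was not tested.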

How the results depend on the processing

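The 192 calls in SW480 became 167 with RLE size factors, 187 with a filter of 1 CPM in 4 libraries and 251 in limma-trend on log2(FPKM + 1), or 259 without its filter. They became 800 without a filter on low counts (429 higher, 371 lower), 396 with DESeq2 (343 and 53), 374 with limma-voom (369 and 5) and 296 on log2(FPKM + 0.1). With GC and length offsets they became 577 (397 and 180), with the same offsets in the 6 SW480 libraries 125, and with the offsets and without EV II 1002 (511 and 491). In the 4, 6 or 8 libraries alone they became 0, where the spread is estimated from fewer libraries and fewer groups. With parental SW480 in place of EV they became 7756. Leaving out each library gave between 89 and 867, and EV I left out gave 179 higher and 102 lower. Of the 192 genes, 184 were still called with DESeq2 and 192 with limma-voom. A minimum of 2-fold removed none of the 192.

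With the replicate block the calls became 143, of which 142 were among the 192, and the 33 calls of the difference between lines became 16. Since deviations correlated at −0.691, the crossed pairing was added after the data were seen, and it gave 212 calls and, for the difference, 25. The 33 calls became 131 without a filter, 115 with DESeq2, 51 with limma-voom, 94 with GC and length offsets and 0 in the 8 libraries alone, and between 0 and 91 with each library left out. The 120 called of the 300 SW480 line genes became 199 without a filter, 194 with GC and length offsets, 185 with the offsets and without EV II, 0 in the 4, 6 or 8 libraries, and between 63 and 153 with each library left out. Fits of 8 libraries, of offsets in 6 libraries and of offsets without EV II were chosen after seeing the data. The cause of these changes in the counts was not tested.

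Of the 51 called genes named, 46 were still called with RLE size factors, 48 with DESeq2, 51 with limma-voom, 41 with the block, 51 with GC and length offsets, and 27, 32, 39 and 50 without ERB I, ERB II, EV I and EV II. The block ended the calls of KRT13, AMOTL1, ITGA3, MT1F, OAS1, CYB5R2, C20orf166-AS1, CD74, HIST1H2BJ and KRT74. Without EV II, CTSD, SQSTM1, MT2A, HIST1H1C, HIST1H2BK, HIST1H2AC and CST4 were called higher. CRLS1, at −0.52, became 1.58 without EV I and −1.39 without EV II. With parental SW480 in place of EV, the sign turned in 58 genes, and the log2 values against parental SW480 follow. FBLN1 and LAPTM5 were left out of this count. Lower with ERB were CHST2 −1.38, CST5 −0.70, DPYSL5 −1.08, VSTM1 −1.43, KCNN4 −1.54, CCDC3 −1.61, GNG11 −2.04, OLFM1 −2.06, CDKN1A −0.26, CCND1 −2.08, TNFAIP2 −2.01, SAA1 −3.41, ICAM1 −2.24, LTB −3.11, CYR61 −2.001, IGFBP3 −1.05, AMOTL1 −3.01, APCDD1 −2.39, DKK3 −1.40, CD44 −2.28, LTBP2 −3.01, FN1 −2.66, ACTA2 −1.40, LOXL2 −1.45, ITGA3 −1.36, KRT5 −0.70, MT1E −1.73, MT1F −1.33, IFITM1 −0.92, IFI27 −0.69, HIST1H2BK −0.78, HIST1H2AC −1.90, MYEOV −0.71, SLC2A3 −2.55, CRMP1 −0.17, NGFR −0.82, KCNJ5 −1.90, TGM2 −1.12, TRIP6 −1.05, MAPT −1.17, CD74 −1.68, SAA2 −3.73, DEFA5 −1.41, HIST1H2BJ −0.42, KRT74 −1.63. Higher with ERB were MYC 0.83, NKD1 1.94, JUP 2.12, VIL1 2.55, HNF4A 2.73, KRT18 1.99, ATF4 1.05, SHMT2 1.79, PYCR1 2.99, AARS 1.63, KARS 0.99, GAPDH 1.49, ENO1 1.54. Genes with 3 reads or fewer in EV have wide counting intervals, which limits ratios of genes that EV hardly expresses.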

Other observations

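Genes lower with ERB passed the test only in fits other than the one used above. Without EV II, 68 genes fell. PSMA1, a subunit of the proteasome core, had 29.5 and 35.7 CPM in ERB and 75.9 and 51.6 CPM in EV (log2 fold change −1.28, adjusted p = 0.0238 without EV II by edgeR). HNRNPA1, an RNA-binding splicing factor with many processed copies in the genome, had 50.5 and 82.3 CPM in ERB and 181 and 94.2 CPM in EV (−1.51, adjusted p = 0.0275 without EV II). Both were named after their values were seen. In both genes the ERB libraries lay below both EV libraries, and EV II lay nearer to ERB than EV I did. CRLS1, the mitochondrial cardiolipin synthase, had 16.7 and 27.3 CPM in ERB and 55.4 and 7.46 CPM in EV. It was called lower without EV II (−1.39, adjusted p = 0.0314) and higher without EV I, also chosen after its values were seen.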
